A study of Schizosaccharomyces pombe with 20 samples.

Results

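The data described here come from 1 array, labelled SPCC162.01c, out of 20 arrays that set deletion strains of the fission yeast Schizosaccharomyces pombe against a wild type. The members were taken by column: every exon, intron and junction probe with a value on that array, which came to 14312 of the 14677 such probes. By its label the strain is a deletion mutant of the haploid Bioneer collection with KanR in place of SPCC162.01c, which the values of that gene's own probe went against. The wild type is labelled ED666 from the same supplier. Both were grown in YES, a rich medium, inoculated at an OD of about 0.05 in 25 ml and collected at an OD of about 0.5, and total RNA was labelled with Cy3 for the deletion strain and Cy5 for the wild type. The array is the only one of its strain. The other 19 arrays cover 11 deletion strains from the same collection. With 2 arrays each these are aar2, ctr1, ppn1, pwi1, smd3, SPAC18G6.13, SPAC20H4.06c and ssu72, and with 1 array each ash2, pht1 and swd1. By their labels all were set against the same wild type strain.

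Splicing removes introns from pre-mRNA, and the spliceosome does this with small nuclear ribonucleoproteins, of which the U4/U6 and U5 particles join as the tri-snRNP before the catalytic step. SPCC162.01c, which RefSeq names snp27, is a predicted component of this particle by its likeness to human SNRNP27. When splicing is slowed, pre-mRNA builds up and mature mRNA falls. Each transcript on the array was read by 3 probe types. An exon probe reads all mRNA of a gene (total mRNA), an intron probe reads unspliced RNA (pre-mRNA), and a junction probe reads the joined exons (mature mRNA). Values are on the log2 scale, with the deletion strain divided by wild type, so that 1 is a 2-fold difference. The pre-mRNA value minus the mature mRNA value of an intron is called its ratio here, and an intron with both probes is called an event.

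The label was checked first. The exon probe of SPCC162.01c had a value of 0.59 on its own array, while on the other 19 arrays it lay between -0.46 and 0.45 with a median of 0.03. The probe was thus not low in the strain labelled as lacking the gene, and its value was the highest of the 20. For comparison, the exon probe of the deleted gene was at -4.34 and -6.45 on the aar2 arrays, -3.92 and -3.75 on the SPAC20H4.06c arrays, -5.09 on the swd1 array and -1.19 on the pht1 array. The smd3 arrays (-0.50 and -0.93), the SPAC18G6.13 arrays (-0.41 and -0.26) and replicate 2 of ctr1 (-0.86) also lay within the range of the other strains. The next protein-coding gene on one side of SPCC162.01c, SPCC162.02c, had a value of 0.09, and adh1 on the other side had none. The sources used here do not give whether the exon probe lies in the part of the gene that was replaced. All results below are therefore those of the array labelled SPCC162.01c.

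**Figure D1:**
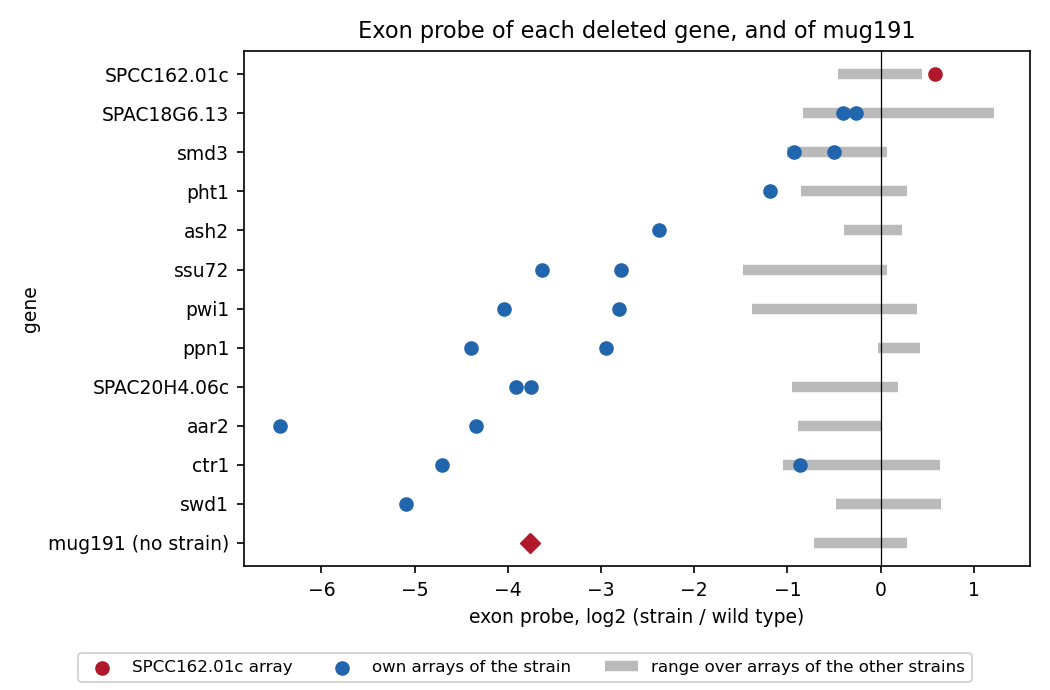
Exon probe values, as log2 of strain over wild type, for the deleted gene of each strain on its own arrays (circles) and over the arrays of the other strains (grey bars). The SPCC162.01c probe stood at 0.59 on its own array, to the right of its grey bar, and mug191, which no strain of the series is labelled as lacking, stood at -3.76 on that array against -0.72 to 0.28 elsewhere.

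The array was more complete than the others in intron and junction probes, though not in exon probes. It held values for 4870 of 5098 exon probes, against 4393 to 5027 on the other arrays, for 4585 of 4694 junction probes, against 3781 to 4396, and for 4857 of 4885 intron probes (99.4%), against 730 to 4229. Of 112 negative control and dark corner spots, which match no yeast transcript, 42 had a value on this array and at most 8 on any other. A value here thus does not by itself show a signal above background, and the median of those 42 spots was -0.15. How many of the intron values used below are background was not tested. Intron probes that other arrays mostly left empty had a value on this array. Their median was -0.06 for the 1528 intron probes with a value on at most 4 other arrays, 0.05 for the 976 with a value on 10 to 14 and 0.18 for the 413 with a value on all 19. Abundant transcripts were often empty: exon probes of 73 of 139 ribosomal protein genes and 6 of 17 glycolysis genes had a value.

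Total mRNA of a small group of genes stood clearly apart from wild type. Of 4870 genes, 23 (0.472%) were called, of which 11 rose (0.226%) and 12 fell (0.246%), in limma's moderated test with Benjamini-Hochberg adjustment at 0.05, and 916 were at an unadjusted p under 0.05. With a single array the strain has no spread of its own, so that the test assumes it to vary like the strains with 2 arrays. It takes in no spread of the wild type beyond that. All 23 genes lay outside the range of every other array on which they had a value. Among the 3967 genes with a value on all 20 arrays, this array was the highest for 496 (12.5%) and the lowest for 442 (11.1%), so a place outside the range is common on it. Without the 5 arrays whose own label the exon probe did not bear out, 20 genes were past the test, and 11 of the 23 were no longer among them.

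The lowest of the 23 was mug191 (SPAC3C7.05c), a gene named for its upregulation in meiosis. Its exon probe stood at -3.76 (SE 0.23, adjusted p = 9.2e-06), against -0.72 to 0.28 on the other 19 arrays, whose median was 0.03. Every other array was at least 3 units higher. The size was close to that of the exon probe of a deleted gene on its own array, such as -3.75 and -3.92 on the SPAC20H4.06c arrays. The genes next to mug191 were not low: SPAC3C7.04 had a value of 0.11 and pit1 had a value of 0.32. What lowered mug191 was not tested.

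Next came ght5 (SPCC1235.14), which codes for the main high-affinity hexose transporter of fission yeast. It stood at -2.70 (SE 0.32, adjusted p = 0.0035) on this array, while all 19 other arrays were above 0, with values from 0.23 to 4.52 and a median of 1.39. The SPCC162.01c array was thus the only one on which ght5 was below wild type. The call was lost with a variance trend and robust estimation (adjusted p = 0.054, and 0.0017 to 0.0093 in the other fits). The putative membrane transporter gene mfs3 fell by 2.24 (SE 0.38, adjusted p = 0.029), against -0.39 to 1.28 elsewhere.

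Both N-methyltransferase genes that make phosphatidylcholine from phosphatidylethanolamine fell. cho1 (SPBC337.16) stood at -1.43 (SE 0.23, adjusted p = 0.025), against -0.88 to 0.18 on the other arrays, and cho2 (SPBC26H8.03) stood at -1.25 (SE 0.18, adjusted p = 0.012), against -0.30 to 0.52. These enzymes act in turn on the same phospholipid. The junction probe of the single cho1 intron stood at -1.67 and its intron probe at -0.18, so that mature mRNA was low together with the exon probe while pre-mRNA was nearer 0. The rest of the genes that fell were cbf12, a CSL-family transcription factor (-1.54), SPAC513.07 (-1.26), SPBPB7E8.02 (-1.15), gpi15, of GPI anchor synthesis (-1.12), cti1 (-1.10), ure4, of urease maturation (-1.09), and cbp4, an assembly factor of respiratory complex III (-1.05).

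The highest of the genes that rose was fio1 (SPAC1F7.08), the iron oxidase of the high-affinity iron uptake system, at 3.77 (SE 0.69, adjusted p = 0.041). On the other arrays fio1 ranged between -2.64 and 1.39 with a median of -0.82. isu1 (SPAC227.13c), the scaffold on which iron-sulfur clusters are built, stood at 2.61 (SE 0.32, adjusted p = 0.0042), against -0.19 to 1.37 elsewhere. Of genes of the respiratory chain, nde1, an NADH dehydrogenase of the mitochondrial membrane, stood at 1.71 (SE 0.22, adjusted p = 0.0054), against -1.42 to 0.31, and rip1, the Rieske iron-sulfur protein of complex III, stood at 1.10 (SE 0.18, adjusted p = 0.028), against -0.57 to 0.15. These 4 genes all bear on iron or on the respiratory chain, which is a description of the members and not a test of either group.

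Further genes that rose were SPBC1703.13c (2.07, adjusted p = 0.0014), srx1, the sulfiredoxin that repairs peroxiredoxin (1.85, adjusted p = 0.041), aru1, an arginase (1.78, adjusted p = 0.029), sro1 (1.73, adjusted p = 0.012), SPBC12C2.03c (1.44, adjusted p = 0.029), adk1, adenylate kinase (1.40, adjusted p = 0.0042), and slp1, the Cdc20-type activator of the anaphase-promoting complex (1.23, adjusted p = 0.029). Their lowest value on any other array was -0.62, of SPBC1703.13c, and their highest was 1.43, of aru1. Of the 23 genes, cho1, cbp4 and gpi15 had junction and intron probes. The 4 junction probes of these genes lay between -1.67 and -1.01 and shared the sign of the exon probe, and their 4 intron probes lay between -0.33 and 0.08.

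**Figure D2:**
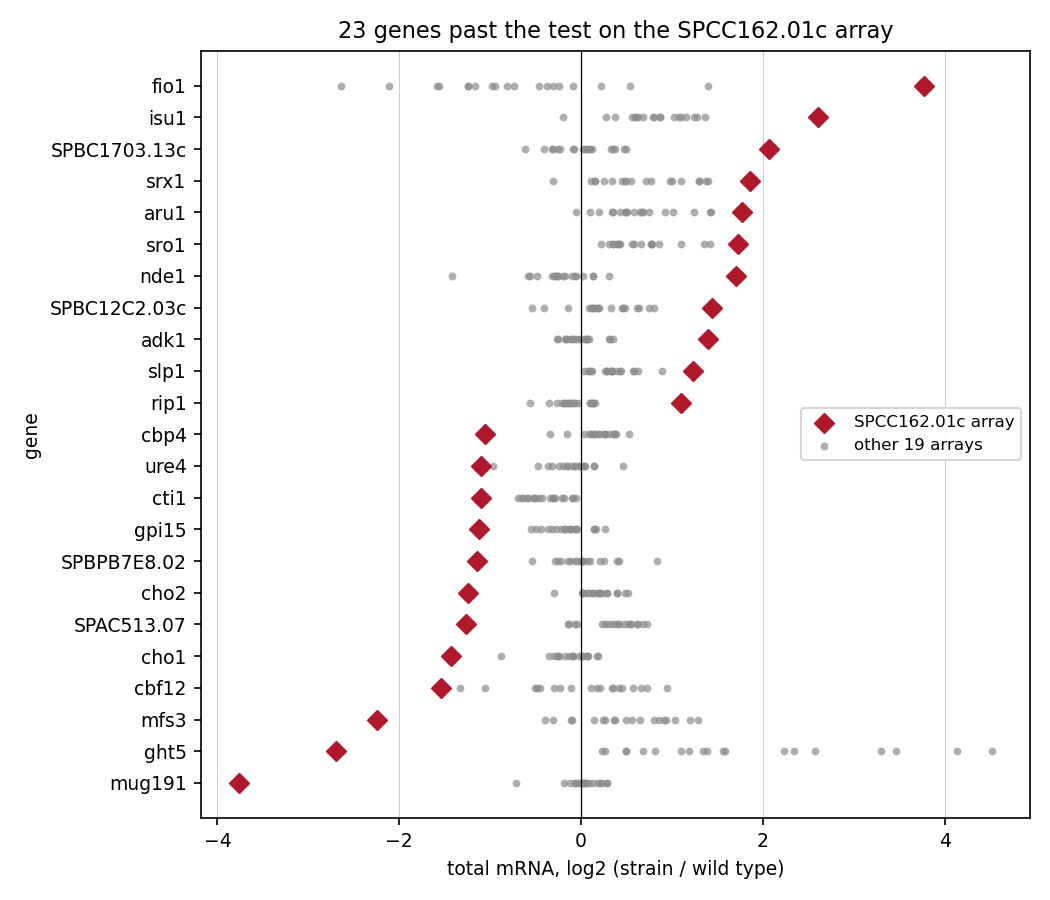
Total mRNA, as log2 of strain over wild type, of the 23 genes past limma's test on the SPCC162.01c array (red diamonds) and on the other 19 arrays (grey circles). fio1 at 3.77 and mug191 at -3.76 mark the ends, and each diamond lies outside the grey circles of its row.

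By label every array shares the same wild type strain, which was not checked. A direct contrast with the other strains asks which changes stand apart from what the deletion strains have in common. Any difference between the wild types of the arrays would enter it. Of 4230 genes with a value in all 12 strains, 55 were called (1.3%), of which 26 were higher (0.615%) and 29 were lower (0.686%) on the SPCC162.01c array than the mean of the other 11 strains (limma, adjusted p under 0.05), and 750 were at an unadjusted p under 0.05. Both tests use the same values of this array and the same spread, so that an overlap is built in: 17 genes were past both, which is 30.9% of these 55 genes and 73.9% of the 23. The 5 largest positive differences were those of fio1 (4.39, SE 0.71, adjusted p = 0.017), fip1 (3.60, SE 0.67, adjusted p = 0.034), SPBC1703.13c (2.11, SE 0.22, adjusted p = 0.00069), nde1 (2.02, SE 0.23, adjusted p = 0.0014) and isu1 (1.77, SE 0.33, adjusted p = 0.034). The 5 largest negative differences were those of SPBPB21E7.08 (-4.49, SE 0.96, adjusted p = 0.044), ght5 (-4.47, SE 0.32, adjusted p = 2.1e-05), mug191 (-3.79, SE 0.23, adjusted p = 7.5e-06), mfs3 (-2.77, SE 0.39, adjusted p = 0.0077) and grx1 (-1.84, SE 0.36, adjusted p = 0.036). The isu1 call of this contrast was lost with a variance trend and robust estimation (adjusted p = 0.055). fip1 is the iron permease that works with fio1 and its next protein-coding neighbour on the chromosome, SPBPB21E7.08 is a pseudogene near a chromosome end, and grx1 is a dithiol glutaredoxin. SPBPB21E7.08 stood at -2.66 on this array, against a median of 1.505 on the other arrays, where it was between -0.72 and 4.002.

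Genes of iron acquisition were examined as a list. This list and those below were chosen with earlier results of these data known, so their counts and medians are descriptions and not tests. The genes fio1 and fip1, named above, are members of it. High-affinity uptake in fission yeast reduces ferric iron at the surface (frp1, frp2), oxidises and imports it (fio1, fip1) or takes up siderophores and heme (str1 to str3, shu1), and the repressor fep1 shuts these genes off when iron is plentiful. php4 acts in a different way, repressing genes that use iron when iron is scarce. Of 15 members with a value, 1 rose, none fell, and 7 were at 1 or above, against 1.62% of all genes. The median was 0.75, beside 0.03 over all genes and -0.54 to 0.98 over the other arrays. The gene str3 stood at 4.19, against -3.46 to 2.53 on the 17 other arrays that read it, and its adjusted p was 0.072. fip1 stood at 3.22, against -2.07 to 1.13 (adjusted p = 0.061), and abc3, a vacuolar transporter of the ABC class, stood at 2.82, against -1.001 to 2.28 (adjusted p = 0.061). The other members at 1 or above were the ferric reductase gene frp1 (2.23), the mitochondrial iron carrier gene mrs3 (1.61) and php4 (1.22). Of these, mrs3 and php4 lay above all 19 other arrays, while frp1 lay within their range (-1.52 to 3.39). The member vht1, at the median of 0.75, was lower here than on 13 of the 18 other arrays that read it. Of 11 members with a value on all 20 arrays, 5 were higher here than on any other, against 12.5% of all genes.

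The same list also held members that were low or near 0. pcl1, a vacuolar iron importer, stood at -0.62, the siderophore synthesis genes sib1 and sib2 stood at -0.02 and 0.27, and the heme receptor gene shu1 at 0.12. sib1 was lower than on all 19 other arrays, where it was between 0.14 and 1.39. In the 21 enzymes of iron use and heme synthesis measured, rip1 rose and the median was 0.38, above the -0.17 to 0.33 of the other arrays. Of 16 with a value on all 20 arrays, 6 were higher here than on any other, against 12.5% of all genes. The genes lys2 (1.26), ilv3 (1.15) and aco1 (1.10) did not pass the test. They code for enzymes of lysine, branched-chain amino acid and citrate metabolism with iron-sulfur clusters. In the 17 iron-sulfur assembly genes the median was 0.07, and beside isu1 no member was at 1 or above. The isu1 value is thus not one shared by the other assembly genes, whose next highest was 0.69, of grx4.

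Copper uptake genes lay on the other side of 0. ctr4 and ctr5, which together form the copper transporter of the cell surface, stood at -1.42 and -1.55, against -0.77 to 1.94 and -1.14 to 0.93 on the other arrays, and both were lower than on all of them. ctr6, the vacuolar copper transporter, stood at -1.32, against -1.52 to 0.66. None of the 3 passed the test (adjusted p = 0.37, 0.21 and 0.37), and none of the 12 copper and zinc genes did. The 3 ctr genes were the only members of the list at -1 or below, where 3.2% of all genes lay, and zhf1, a zinc transporter of internal membranes, was the highest member at 0.93.

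Of 8 hexose transporter genes, ght5 fell, beside 0.246% of all genes. Below 0 were 6 members, of which ght2 (-0.03), ght6 (-0.09) and ght1 (-0.17) lay near 0. The list median was -0.13, beside 0.03 over all genes and -0.39 to 1.59 over the other arrays. ght4 stood at -1.14 (adjusted p = 0.07), against -0.54 to 1.02, and was past the contrast with the other strains. ght8 stood at -0.51, against -0.19 to 0.71 on 13 other arrays. ght3, in contrast, stood at 1.03, within the range of the other arrays (-1.68 to 1.68). The glucose-repressed genes as a list had a median of 0.10 and no member past the test. Its lowest member was gmh1, a galactosyltransferase gene, at -1.56 (adjusted p = 0.19), below the 11 other arrays that read it, and its highest was mel1, the alpha-galactosidase, at 2.60, above the 17 that read it. fbp1 of gluconeogenesis stood at -0.21 and inv1, the invertase, at -0.24, while adh4 (0.87), acs1 (0.73) and gld1 (0.65) were above 0, so that the list had no common direction.

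**Figure D3:**
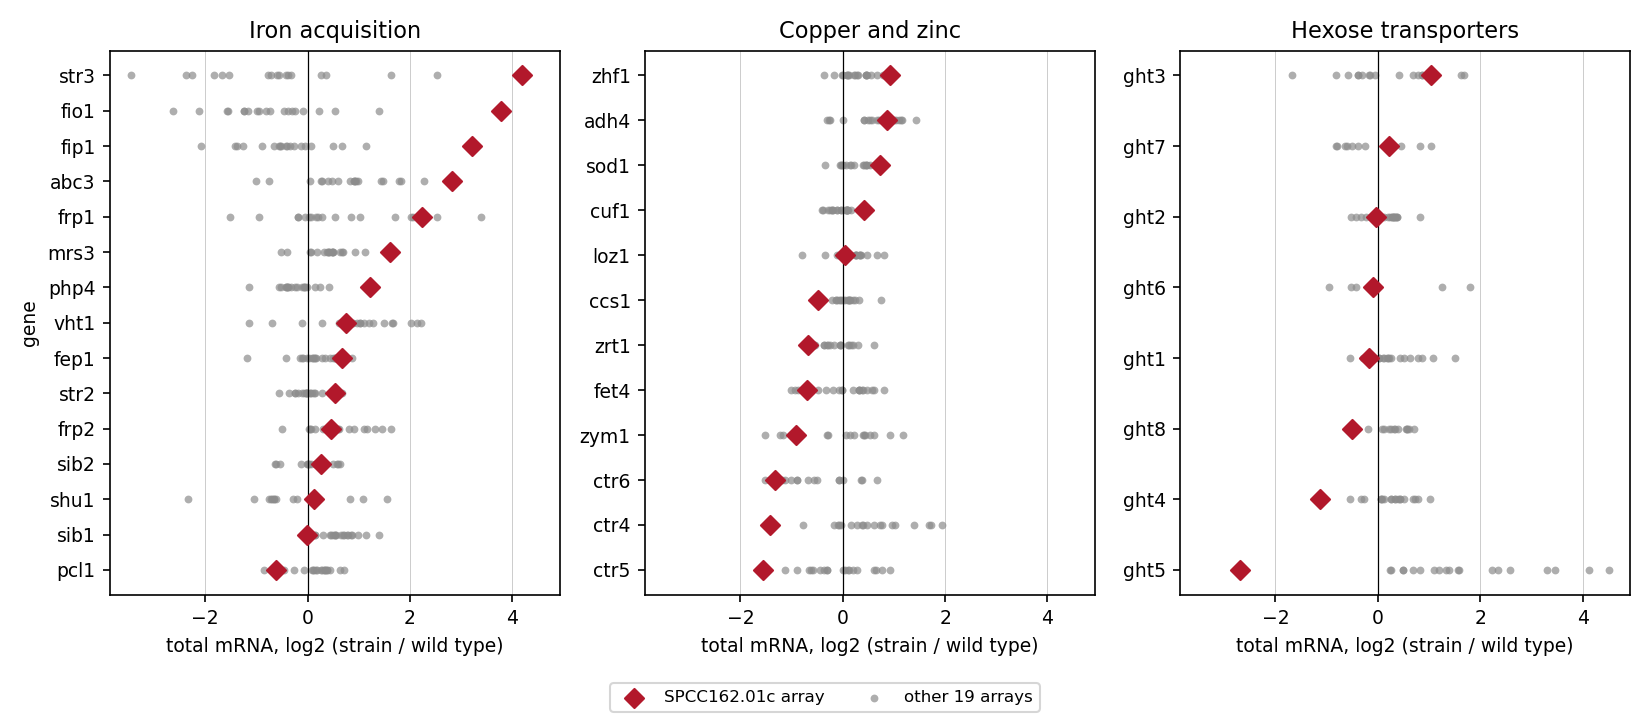
Total mRNA, as log2 of strain over wild type, of the members of 3 lists on the SPCC162.01c array (red diamonds) and on the other 19 arrays (grey circles). The iron genes from str3 to php4 lay at 1.22 or above, the 3 ctr genes at -1.32 or below, and ght5 at -2.70 with every grey circle above 0.

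Genes of the stress responses showed no common direction. In the oxidative stress list 2 of 27 members rose (srx1 and sro1) and none fell, beside 0.226% and 0.246% of all genes, while grx1 (-1.65), bfr1 (-1.22), grx2 (-1.16) and gpx1 (-1.05) were the lowest. The median of that list was -0.06, and it was between -0.0039 and 0.49 on the other arrays. bfr1, a drug efflux transporter gene, was above 0 on all 18 other arrays that read it, with values from 0.14 to 2.31. The core environmental stress list had a median of 0.41, against -0.17 to 0.62 on the other arrays, with sro1 the only member past the test and hsp104, a disaggregating chaperone, at 1.16. Phosphate response genes (median 0.18, 8 measured) and meiotic genes (median 0.06, 59 measured) had no member past the test, and mug10 was the only meiotic member at -1 or below (-1.01).

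Ribosome biogenesis genes lay above the level they had on most other arrays. Their median over 113 members was 0.10, against a range of -0.47 to 0.16 and a middle value of -0.30 over the other arrays, and 31 of 101 members with a value on all 20 arrays were higher here than on any other array, against 12.5% of all genes. No member passed the test against wild type, and 4 were past the contrast with the other strains, with differences of 1.20 for gar1, a core protein of snoRNPs (adjusted p = 0.034), 1.07 for mrt4 (adjusted p = 0.036), 1.04 for erb1 (adjusted p = 0.042) and 0.99 for dip2 (adjusted p = 0.033), the last 3 of ribosome assembly. Of all genes, 0.615% were higher in that contrast. Against wild type the list median was close to the 0.03 of all genes. The highest members against wild type were gar1 at 0.84 and fib1, the fibrillarin, at 0.75. Ribosomal protein genes had a median of -0.32 over 73 measured, with 8 at 1 or above and 17 at -1 or below, where 1.62% and 3.2% of all genes lay, and no member past the test against wild type.

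Genes that differ between laboratory strains were examined too. The marker gene ura4 stood at -4.38 on this array, and at -7.07 to -0.45 on the 18 other arrays that read it, with a median of -5.83. Of the M mating-type genes, mat1-Mc stood at -2.75 and mat3-Mc at -3.24, against medians of -4.19 and -4.24 elsewhere, and mfm2, an M-factor pheromone gene, stood at -4.98 against a median of -5.05. leu1 stood at 1.55, above the -0.30 to 1.42 of the other arrays, and ade6 at 0.88. The low markers of this array were thus low on most arrays of the series. What set them apart from the wild type was not tested, and the label of the wild type was not checked. None of them passed the test (adjusted p = 0.17 for ura4 and 0.071 for mfm2). isp4, an oligopeptide transporter gene of the mating and nitrogen list, stood at -2.47 (adjusted p = 0.078) and was lower than on any other array (-2.03 to 1.31).

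Short genes read low on the array. RefSeq gene lengths were known for 98.6% of exon probes with a value, and genes were split by length into 5 classes of about equal size. In the shortest class, of at most 1138 bases, the median of total mRNA was -0.32, and it was -0.06, 0.10, 0.10 and 0.13 in the classes above it. Mature mRNA ran the same way, with a median of -0.53 in the shortest class and 0.00 in the longest, and pre-mRNA with medians of -0.16 and 0.07. The ratio ran the opposite way, from 0.37 in the shortest class to 0.06 in the longest. Across genes, Spearman's rho of length with total mRNA was 0.30 here and lay between -0.16 and 0.39 on the other arrays. For the ratio rho was -0.25 here, outside the -0.18 to 0.15 of the other arrays, and over the introns shared with each of them in turn it was lower here than on all 19. Total mRNA thus ran with length on other arrays as well, while the ratio ran more steeply against it on this one. The 23 genes past the test were spread over the classes, with 4 in the shortest.

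**Figure D4:**
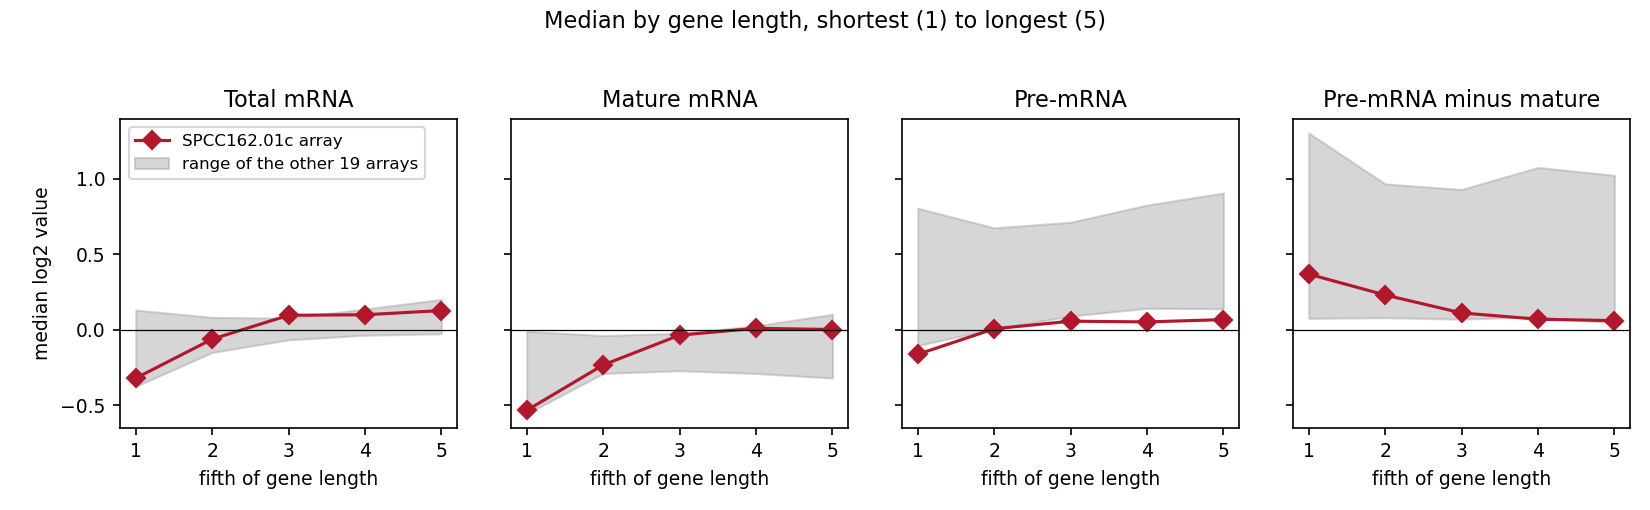
Median log2 value by class of gene length, from the shortest (1) to the longest (5) genes, on the SPCC162.01c array (red) and its range over the other 19 arrays (grey band), for total mRNA, mature mRNA, pre-mRNA and the ratio. Total mRNA stood at -0.32 in the shortest class and 0.13 in the longest, and the ratio at 0.37 and 0.06.

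Gene length moved with several lists, and its part in them was not tested. Of 31 respiratory chain genes, the 20 in the shortest class had a median of -0.50 and the other 11 a median of 0.46. Small subunits such as atp15 (-1.52), atp18 (-1.42), cox8 (-1.41) and qcr10 (-1.05) were the lowest of the list, while nde1, rip1, cox5 (1.005) and qcr2 (0.99) were the highest. Of the 73 ribosomal protein genes measured, 69 were in the shortest class (median -0.34). The 16 ribosome biogenesis genes in the shortest class had a median of -0.41, and the other 97 a median of 0.17.

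The components of the tri-snRNP, the particle in which SPCC162.01c is placed, were followed through all 3 probe types. Total mRNA of the 32 measured genes had a median of -0.30, lower than on any other array (-0.23 to 0.15), 8 were above 0, and none passed the test. At an unadjusted p under 0.05 there were 2 higher and 10 lower, beside 9.14% and 9.67% of all genes. The lowest were lsm6 (-1.54), smg1 (-1.21), dim1 (-0.96) and smd3 (-0.94), small proteins of the Sm and LSm rings or of the U5 particle. The highest were brr2, the helicase that unwinds U4 from U6 (0.65), cwf10, the U5 GTPase (0.46), rna4 (0.38) and prp31 (0.34). The 14 members in the shortest class had a median of -0.82, and the other 18 had a median of -0.10.

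Exon and junction probes lay on the same side of 0 in 47 of 53 events of these genes. rna4 was among the exceptions, with its exon probe at 0.38 and its junction probe at -0.27, and so was junction 3 of sme1, at 0.24 with the exon probe at -0.58. The lsm6 junction probes stood at -1.72 and -1.37 and its intron probes at -0.36 and -0.95, and the 3 smg1 junction probes lay between -1.30 and -1.13 with intron probes between -0.37 and -0.34. Over the 53 events of tri-snRNP genes the median was -0.58 for total mRNA, -0.48 for mature mRNA and -0.18 for pre-mRNA, and the ratio had a median of 0.41 with 44 events above 0 (83.0%). Over all 4423 events the median ratio was 0.14 and 65.0% were above 0, and among events in genes at -0.5 or below in total mRNA 90.6% were. No event passed the test and 2 were at an unadjusted p under 0.05. The highest ratio was that of lsm6 intron 1 (1.36) and the lowest that of cwf10 intron 2 (-0.48), where mature mRNA stood at 0.75 and pre-mRNA at 0.27. The other spliceosomal genes, 79 with a value, had a median total mRNA of 0.09 and a median ratio of -0.03 over 89 events.

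Splicing itself was compared event by event. The ratio had a value for 4546 events, and no event was past limma's test in either direction (0.0%), with 121 at an unadjusted p under 0.05. Without the arrays of doubtful label 1 event was lower. The 121 events are a smaller share than the 0.05 that a test gives with no change, and so are the intron probes below. The lack of calls thus does not show that splicing was unchanged. The spread in the fit took in pairs of arrays that differed widely, such as ctr1 (median ratio 1.35 and 0.12 over 276 shared events). Without the arrays of doubtful label, the shares of events and of intron probes at an unadjusted p under 0.05 were both above 0.05. Of the events, 89 were at 1 or above (1.96%) and 24 at -1 or below (0.528%). The median was 0.14, with quartiles of -0.11 and 0.40. On their own, none of 4857 intron probes was past the test (107 at an unadjusted p under 0.05), and 3 of 4585 junction probes were (0.0654%), of which 1 was higher (0.0218%) and 2 were lower (0.0436%), with 819 at an unadjusted p under 0.05. Junction probes at 1 or above made up 0.502% and those at -1 or below 3.97%.

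The junction probes that passed were those of trs20 introns 1 and 2 and of rps3 intron 1. trs20, a subunit of the TRAPP trafficking complex, stood at -1.10 and -1.16 there (SE 0.16 and 0.18, adjusted p = 0.047 each), and at -1.09 at junction 3. Its exon probe stood at -0.89, and all of these were lower than on every other array that read them. With a variance trend and robust estimation the trs20 calls were lost (adjusted p = 0.057 and 0.081). The rps3 junction, in a gene of the small ribosomal subunit, stood at 1.34 (SE 0.19, adjusted p = 0.047), against -0.52 to 0.01 on the 19 other arrays, while its intron probe at -0.44 was lower than on any of them (-0.35 to 1.48) and its exon probe had no value here.

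Across the 4423 events with all 3 probe types, mature mRNA and, less steeply, pre-mRNA ran with total mRNA. Pearson's r across events was 0.83 between total and mature mRNA, 0.46 between total and pre-mRNA and 0.48 between pre-mRNA and mature mRNA, and each was the highest of the 20 arrays, where the others reached 0.77, 0.35 and 0.40. These are descriptions across events that share genes and 1 hybridization. The arrays with fewer values cover fewer events, and over the events shared with each other array in turn (487 to 3727) all 3 values were again higher here than on each of the 19. The slope on total mRNA was 0.84 for mature mRNA and 0.36 for pre-mRNA. Since the pre-mRNA moved less than the mature mRNA, the ratio ran against total mRNA, with r of -0.51, below the -0.42 to -0.06 of the other arrays. A part of such an inverse relation comes with the ratio itself, which subtracts the mature mRNA.

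By bins of total mRNA, the 658 events in genes at -0.5 or below had a median pre-mRNA value of -0.30 beside a median mature mRNA value of -0.78, and 90.6% of them had a ratio above 0. In the 943 events between -0.25 and 0, median pre-mRNA was 0.01 and median mature mRNA was -0.17. In the 294 events above 0.5, pre-mRNA had a median of 0.24 beside 0.46 in mature mRNA, and 32.3% had a ratio above 0. The median ratio thus went through 0.49, 0.31, 0.18, 0.06, -0.07 and -0.24 over the 6 bins, changing sign between genes near wild type and genes above it. The relation was present in each class of gene length, with r between total mRNA and the ratio of -0.48 in the shortest and -0.27 in the longest, and among the 1184 events whose intron probe was read on at least 15 other arrays (-0.50).

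**Figure D5:**
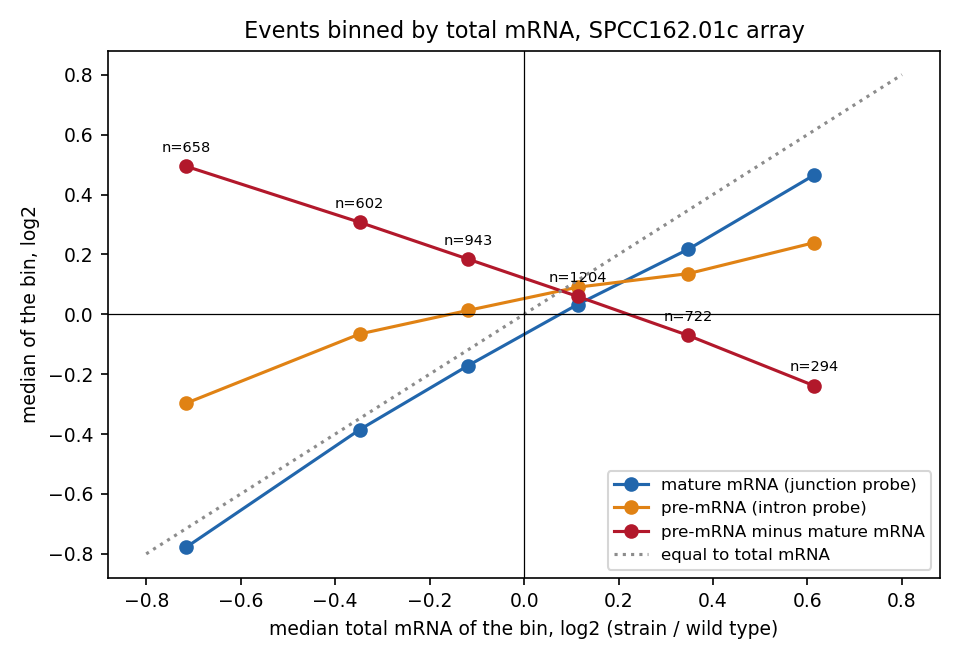
Median mature mRNA, pre-mRNA and their difference, all log2 of strain over wild type, over 6 bins of total mRNA on the SPCC162.01c array, with the number of events in each bin. The difference stood at 0.49 in the lowest bin (658 events) and -0.24 in the highest (294 events), and the mature mRNA line ran close to the dotted line of equality.

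Sorted by sign, the pattern was mixed. Pre-mRNA and mature mRNA lay on the same side of 0 in 64.4% of the events (1279 both above and 1568 both below), more than on any other array (36.6% to 61.4%). Events with pre-mRNA above and mature mRNA below 0 made up 24.4%, against 25.6% to 59.9% on the other arrays, each over its own events. Over the events shared with each in turn, the share was lower here than on 17 of 19 arrays and higher than on ash2 (27.5% against 26.8%) and ctr1 replicate 2 (27.0% against 25.7%). The reverse made up 11.2%, against 3.5% to 14.7%. Most of these values lay near 0: by 0.2 on both probes, 242 of the 1080 events of the first kind and 63 of the 496 reverse events remained. The first kind was most frequent in genes slightly below wild type (39.6% between -0.25 and 0) and the reverse kind in genes above it (21.1% between 0.25 and 0.5). Among the 341 events whose intron probe had a value on all 19 other arrays, the shares were 29.3% and 7.33%, a set of introns chosen after the data were seen.

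Over the 276 events with a ratio on all 20 arrays, which sets the arrays side by side on the same introns, the median ratio was 0.24 here. ctr1 replicate 2 (0.12) and ssu72 replicate 2 (0.20) were lower, and the others ran up to 1.38 on smd3 replicate 2. The SPAC20H4.06c arrays stood at 0.71 and 0.54 and the aar2 arrays at 0.89 and 0.40. The ratio was above 0 for 71.7% of these events on the SPCC162.01c array.

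Position in the gene made little difference. The median ratio was 0.12 in genes with 1 intron (928 events), 0.15 with 2 or 3, 0.16 with 4 or 5 and 0.07 with 6 or more. It was 0.11 for first introns of genes with several, 0.14 for inner introns and 0.18 for last introns, with quartiles that overlapped widely (-0.13 to 0.36 for first and -0.07 to 0.46 for last introns). Introns of the same gene went together: over 1094 genes, r between intron 1 and intron 2 was 0.87 for mature mRNA, 0.48 for pre-mRNA and 0.52 for the ratio. Over the genes shared with each other array in turn (30 to 796), r was higher here than on all 19 for mature mRNA, on 14 for pre-mRNA and on 18 for the ratio.

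The events at the ends of the ratio are given as a description. At the lower end, SPAC29A4.02c intron 1 stood at -2.15, with pre-mRNA at -1.005, mature mRNA at 1.14 and total mRNA at 0.65. On the 18 other arrays with both probes its ratio was above 0 throughout, between 0.61 and 3.07, and its intron probe was above 0 on all 19, between 0.33 and 2.66. The event thus ran the opposite way on this array alone. It was the only event past the contrast with either comparison strain: -3.47 against aar2 (SE 0.54, adjusted p = 0.04, 1 of 2785 events or 0.0359%, with 152 at an unadjusted p under 0.05) and -3.52 against SPAC20H4.06c (SE 0.56, adjusted p = 0.0093, 1 of 857 events or 0.117%, with 65). Neither call held with a variance trend and robust estimation. The call against aar2 was lost without either aar2 array, and the call against SPAC20H4.06c without its replicate 1.

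Other events at the lower end were lsd90 intron 2 (-1.54), SPCC757.06 intron 1 (-1.47) and SPCC4F11.05 intron 1 (-1.32), none of which had a ratio on any other array, and ppx1 intron 1 (-1.37), which was between -0.28 and 2.89 on the other 19. med11 intron 1 (-1.39), SPAC8E11.06 intron 1 (-1.24) and pre5 intron 2 (-1.24), the first in a gene of the Mediator complex and the last in a gene of the proteasome, were below every other array that read them, of which there were 2, 4 and 12. mug74 intron 1, at -1.45, lay within the range of the other arrays (-5.14 to 0.17, median -3.62). rpl1601 intron 1 stood at -1.38 with mature mRNA at 1.49 and total mRNA at 1.47.

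At the upper end, tom20 intron 1, in the gene of a receptor of the mitochondrial outer membrane, stood at 3.24 with pre-mRNA at 2.61, and SPBC16E9.02c intron 2 stood at 2.76 with pre-mRNA at 3.07. Both were high on most arrays of the series, with medians of 4.48 and 2.05 elsewhere, and tom20 introns 2 and 3 had intron probes at -0.42 and -0.32 on this array. The next events differed in kind, since their mature mRNA was low and their pre-mRNA near 0: tim8 intron 2 (1.73), atp19 intron 2 (1.69), rpl3602 intron 1 (1.66) and tim9 intron 1 (1.59) had mature mRNA between -1.58 and -1.21, total mRNA between -1.48 and -1.29, and pre-mRNA between 0.11 and 0.52. tim8 and tim9 are small chaperones of the mitochondrial intermembrane space. Each of these 4 was higher than on every other array that read it, and none passed the test. srb7 intron 1 (1.54), in a gene of the Mediator complex, was of the same kind, with mature mRNA at -1.29 and total mRNA at -1.07. klf1 intron 2 (1.56) had mature mRNA at -1.27 while total mRNA was at 0.12, so that exon and junction probes of this gene differed in direction.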

How the data were processed

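Each value the authors deposited is a log2 ratio of a deletion strain to wild type, without counts or intensities. The sources used here do not give scanner settings, background correction or normalization. The value table in the series matrix held the same values in all 304160 cells compared. No scaling was added, and empty values were left empty. The control spots (536) and exon-skipping and noncoding RNA probes entered no test. The labels call replicates separate cultures. Groups came from sample titles. In limma 3.58.1 (R 4.3.3), each feature was fitted with 1 mean per strain over all 20 arrays, and the SPCC162.01c mean was tested two-sided against 0, against the mean of the 11 other strains, and against aar2 and SPAC20H4.06c, with Benjamini-Hochberg adjustment over all features tested and a threshold of 0.05. The residual spread comes from the 8 strains with 2 arrays. The fit was also run on simulated arrays with independent noise and no effect of replicate number. That run cannot show how the test behaves where such effects exist. The number of arrays limits the precision.

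Of 5281 gene identifiers, 5177 matched RefSeq ASM294v3, used for names, neighbours and gene lengths. The members and gene lists were chosen with earlier results of these data known. After values were seen, 4 list entries whose symbol names a different gene in fission yeast (cia1, rad3, lys4 and pmt1) and 10 second identifiers of a listed gene were left out. The remaining entries given as symbols were matched by symbol alone, so a list may still hold a gene of another function. Named are the deleted gene and markers, up to 15 genes each way past the test, members of the lists past the test with the 4 highest and lowest, the 10 highest and lowest ratios with 3 probe types, and 5 genes each way in a contrast. A few others (frp1, mrs3, php4, bfr1, grx4, isp4 and single neighbours or list members) were named after their values were seen.

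Alternatives were centring on exon probes, a variance trend with robust estimation, the replicate number as a block, leaving out the smd3 and SPAC18G6.13 arrays and ctr1 replicate 2, features read on all 20 arrays, a fold rule without a test, and leaving out arrays of the compared strains.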

Additional observations from a re-analysis of the deposited data

Results flagged for a closer look

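The SPCC162.01c array differed from the mean of the other strains for 55 of 4230 genes (limma, adjusted p under 0.05). The largest differences upward were those of fio1 (4.39), fip1 (3.60), SPBC1703.13c (2.11), nde1 (2.02) and isu1 (1.77), and downward those of SPBPB21E7.08 (-4.49), ght5 (-4.47), mug191 (-3.79), mfs3 (-2.77) and grx1 (-1.84). Each of these 10 genes lay outside the range of every other array. The ratio of SPAC29A4.02c intron 1 differed from the aar2 arrays by -3.47 and from the SPAC20H4.06c arrays by -3.52, with pre-mRNA below and mature mRNA above wild type on the SPCC162.01c array alone.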

How the results depend on the processing

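Total mRNA, with 23 genes past the test, gave 48 with centring (20 higher, 28 lower), 47 with a variance trend and robust estimation, 42 over features read on all 20 arrays and 235 at an absolute log2 value of at least 1. Mature mRNA, with 3, gave 14 with centring (1 higher and 13 lower, beside 1 and 2 without it), 1 with the trend, 97 without the arrays of doubtful label, 13 over features on all arrays and 205 by the fold rule. Pre-mRNA, with none, gave 5 without those arrays and 35 by the fold rule, and the ratio gave 1 and 113. The contrast with the other strains, with 55, gave 94 with the trend. Against aar2 and SPAC20H4.06c, with 1 event each, the counts were 0 and 0 with the trend, 0 and 0 over events on all arrays, 9 and 11 without the arrays of doubtful label, 0 to 0 without an aar2 array and 0 to 1 without a SPAC20H4.06c array. The cause was not tested.

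With the replicate number as a block, the counts were 530 for total mRNA, 379 for mature mRNA, 318 for the contrast with the other strains, 2 against aar2 and 5 against SPAC20H4.06c, and it ended no call among the named genes and events past a test. Named genes that had not passed were not followed under it. The block counts this array as replicate 1, but its total mRNA correlated at -0.26 with the difference of replicate 1 minus 2. The correlation was -0.19 in mature mRNA, -0.03 in pre-mRNA and -0.17 in the ratio. Calls kept or gained under the block thus say little about how firm they are. The numbers share no stated batch: over 28 pairs of strains, differences between replicate 1 and 2 correlated at 0.04 to 0.78 in total mRNA, not all above 0.1, though each of 16 arrays went best with its own number.

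Of the 23 genes, 11 stayed past the test in every alternative fit run (mug191, cho1, cho2, cbp4, fio1, isu1, nde1, sro1, adk1, slp1 and SPBC1703.13c), and none changed direction. Without the arrays of doubtful label 11 were lost, and with the trend ght5 and cti1 were lost, as were the isu1 contrast and both trs20 junctions. Centring shifted values by 0.03. The restriction to events read on more arrays or shared by 2 arrays was chosen after seeing the data.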
